A study of Mus musculus with 6 samples.

Results

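The Notch pathway carries signals between touching cells. A ligand of the Jagged or Delta-like kind on one cell binds a NOTCH receptor on its neighbour, proteases then cut the receptor, and its intracellular part enters the nucleus, where it joins the DNA-binding protein RBPJ and Mastermind coactivators to switch on repressor genes of the HES and HEY kind. In the heart the pathway is best known for shaping the endothelium, the valves and the mural cells around vessels, and it also takes part in the response of fibroblasts to injury. The genes described here are 10 rows of a table of 22063 genes, chosen because their symbol was that of a Notch receptor (*Notch1*, *Notch2*, *Notch3*, *Notch4*), a Jagged ligand (*Jag1*, *Jag2*), a HES or HEY target (*Hes1*, *Hey1*, *Heyl*) or the feedback inhibitor *Nrarp*. All 10 symbols were found once each.

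RNA-seq was performed on primary cardiac fibroblasts from Tet3 f/f mice, in which loxP sites flank part of *Tet3*, the gene of an enzyme that oxidises 5-methylcytosine in DNA. The GFP group (labelled Control, 3 libraries) had received an adenovirus coding for green fluorescent protein, the CRE group (labelled Tet3 knockout, 3 libraries) one coding for Cre recombinase, and all 6 libraries came from cells given TGF-β, the main inducer of the myofibroblast state. Comparing the groups addresses which RNAs need *Tet3* in TGF-β-treated cells. Loss of *Tet3* and the presence of Cre protein cannot be told apart in this design, untreated cells were not part of these libraries, and the age of the animals is not given in the sources used here. The study calls the replicates of this experiment biological, but no label ties a library to a culture or animal, so p-values measure only the spread between these libraries.

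Total counts lay between 17002126 and 20343590 per library. *Tet3* counts were 1044, 965 and 1000 under GFP and 642, 649 and 637 under CRE, so that 60.8% of its normalized level remained in a count that covers the whole gene. Of the 12862 genes with enough counts to be tested, 51.2% had a Benjamini-Hochberg adjusted p below 0.05 by the quasi-likelihood test of edgeR and are referred to as called, 25.5% higher and 25.7% lower in CRE, and 59.6% had groups that did not overlap. These shares are the background for each count of genes below. GFP replicate 1 stood apart from its group, with a chi-square per degree of freedom over genes of 11.7 and 9.07 against the other GFP libraries, where all other pairs within a group had 3.94 to 5.32. The results that turn on it (*Notch3*, *Jag2* and *Hes1*) are given with and without it. Scaling by library size alone, without the TMM factors that allow for differences in composition, shifted the median over all genes by 0.16 on the log2 scale. Of 9 fibroblast markers all were tested and 7 were lower, so that the labelled cell type was present in both groups, with a summed level of 27878 to 28982 CPM (TMM-scaled counts per library) in GFP and 16967 to 18399 CPM in CRE. Markers of endothelial cells were also present, with 13 of 15 lower and none higher in CRE, as were those of mural cells (8 of 10 tested, 5 lower, 1 higher). Of 8 macrophage markers 4 were tested and 2 were lower, with a sum of no more than 35.9 CPM in any library, and none of 8 cardiomyocyte markers had enough counts. In bulk RNA, fewer cells of a type and less RNA per cell cannot be told apart.

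The 3 members that were called, *Notch2*, *Notch4* and *Jag1*, were all lower in CRE. Their promoters are shown beside that of *Notch1*, which was not called, because *Tet3* acts on methylated cytosine, which in mammals lies mostly in CG dinucleotides, and the 4 promoters differ in how many of these they hold. Each sequence is from RefSeq (GRCm38.p6), runs 5′ to 3′ on the strand of the gene from 250 bases before to 50 bases after the transcription start in RefSeq, and has its CG dinucleotides in capitals. For *Notch1* this start lies inside the gene span of the GENCODE annotation given further on, in which another transcript begins further upstream.
*Notch4*, chr17:34564045-34564344, plus strand: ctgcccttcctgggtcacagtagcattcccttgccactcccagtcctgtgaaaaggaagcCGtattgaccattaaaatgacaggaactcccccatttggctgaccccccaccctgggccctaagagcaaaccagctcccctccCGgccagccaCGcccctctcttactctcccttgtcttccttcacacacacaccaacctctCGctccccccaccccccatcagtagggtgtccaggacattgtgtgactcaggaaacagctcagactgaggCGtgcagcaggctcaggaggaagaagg
*Notch2*, chr3:98013288-98013587, plus strand: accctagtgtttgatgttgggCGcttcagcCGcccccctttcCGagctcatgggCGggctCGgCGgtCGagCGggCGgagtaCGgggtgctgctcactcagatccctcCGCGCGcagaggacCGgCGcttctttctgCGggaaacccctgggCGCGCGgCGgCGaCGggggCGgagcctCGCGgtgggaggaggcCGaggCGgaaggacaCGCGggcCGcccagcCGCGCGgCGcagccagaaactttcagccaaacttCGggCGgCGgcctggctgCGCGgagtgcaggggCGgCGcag
*Jag1*, chr2:137116471-137116770, minus strand: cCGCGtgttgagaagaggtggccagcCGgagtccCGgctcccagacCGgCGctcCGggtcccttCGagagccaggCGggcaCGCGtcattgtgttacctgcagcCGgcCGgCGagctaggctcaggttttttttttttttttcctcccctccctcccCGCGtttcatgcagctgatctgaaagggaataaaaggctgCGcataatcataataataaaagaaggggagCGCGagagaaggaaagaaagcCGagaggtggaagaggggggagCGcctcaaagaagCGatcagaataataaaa
*Notch1*, chr2:26503773-26504072, minus strand: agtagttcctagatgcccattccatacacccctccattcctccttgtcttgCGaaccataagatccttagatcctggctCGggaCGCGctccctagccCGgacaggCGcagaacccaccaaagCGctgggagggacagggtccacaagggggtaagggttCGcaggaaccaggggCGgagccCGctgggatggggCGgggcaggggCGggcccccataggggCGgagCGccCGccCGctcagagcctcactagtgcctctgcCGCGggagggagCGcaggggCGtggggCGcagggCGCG

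The promoter of *Notch4* held 5 CG dinucleotides, the fewest among the 7 members with a promoter in the table (*Nrarp*, *Notch1*, *Notch2*, *Notch3*, *Notch4*, *Jag1* and *Jag2*). That of *Notch2* held 41, that of *Jag1* 22 and that of *Notch1* 23, and the median over 32851 promoters was 7. The called members therefore stood on both sides of that median. The core letters of an RBPJ site, TGGGAA on either strand, were in none of the 7 windows and in 25.6% of all promoters. The E box CACGTG, which HEY proteins bind, was in 1 of the 7, *Nrarp*, and in 7.15% of all promoters, and the N box CACNAG, a HES site, was in 4 of the 7 and in 42.5% of all. These are matches of letters in a short window and say nothing of binding. Methylation was not measured in these libraries.

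Of the members, 8 of 10 passed the filter on low counts, and of these 3 were lower and none was higher, which is 37.5% against 51.2% of all tested genes. One higher member (*Jag2*) and 4 lower ones (*Notch2*, *Notch3*, *Notch4* and *Jag1*) had an unadjusted p under 0.05, and DESeq2 and limma-voom also called none higher. The median log2 fold change of the 8 was -0.20, beside 0.01 for all tested genes. *Jag2* passed the filter only through the CRE group, where it was higher, and *Hey1* and *Nrarp* did not pass. Groups did not overlap in 4 of the 8 tested members, against 59.6% of all tested genes. Both shares lay below the background, so the description rests on single members.

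**Figure D1:**
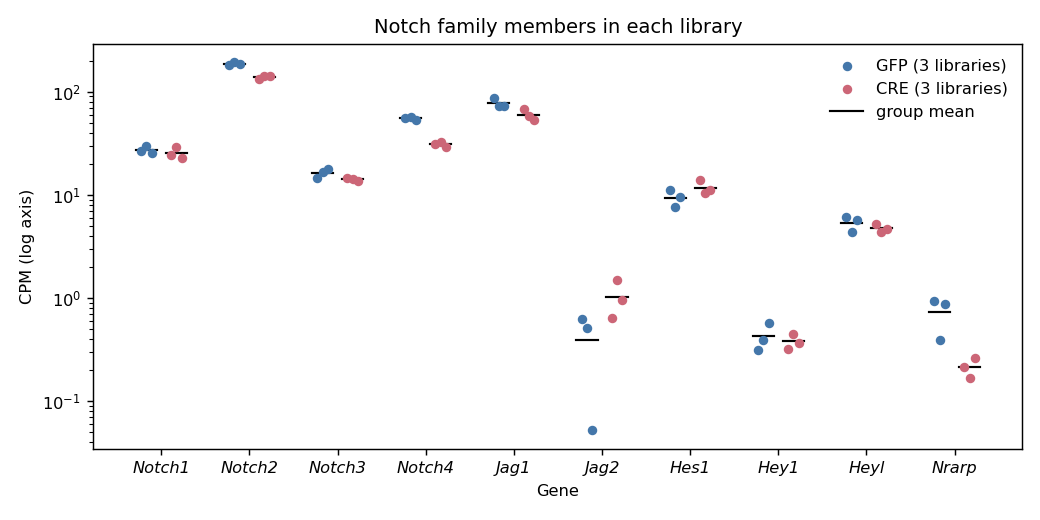
Normalized level of each member in each library. The y axis is CPM on a log axis, points are libraries (blue GFP, red CRE) and black lines are group means of 3. *Notch2*, *Notch4*, *Jag1* and *Nrarp* have all CRE points below all GFP points, and *Jag2* has all CRE points above. *Notch1*, *Notch3*, *Hes1*, *Hey1* and *Heyl* overlap, and *Jag2*, *Hey1* and *Nrarp* are the lowest.

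The receptors are single-pass membrane proteins with a long extracellular part of EGF-like repeats. *Notch4*, the receptor whose expression is most typical of endothelium, lies on the plus strand of chromosome 17, positions 34564268 to 34588503 (GRCm38, GENCODE M21), and is protein-coding. *Notch4* counts were 896, 1006 and 1024 under GFP and 575, 589 and 551 under CRE, or 55.7, 56.7 and 53.2 CPM against 30.9, 32.6 and 29.1 CPM. The CRE libraries lay close together and well under the GFP range. The GFP mean was 55.2 ± 1.81 CPM and the CRE mean 30.9 ± 1.76 CPM (SD, n = 3), so 55.9% remained. The edgeR log2 fold change was -0.84 (SE 0.06, adjusted p of 2.75e-06). *Notch4* was the member with the lowest p, and it passed the threshold in all 16 other fits.

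*Notch2* (chromosome 3, positions 98013527 to 98150361, plus strand), the receptor with the most counts here, had 182.5, 192.6 and 184.5 CPM under GFP and 132, 142 and 141 CPM under CRE. The groups were again fully separated. The edgeR log2 fold change was -0.43 (SE 0.05, adjusted p of 3.86e-05), and the call held in all 16 other fits, the change nearest 0 being -0.25. In the annotation 541 of its exonic bases are shared with an unconfirmed transcript (*Gm42820*) on its own strand, which was not analysed here.

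*Notch1* (chromosome 2, positions 26457903 to 26516663, minus strand), the receptor most studied in the developing heart, had 26.7, 29.7 and 25.7 CPM in GFP and 24.5, 29.3 and 23.0 CPM in CRE. The groups overlapped, and replicate 2 was the highest library of each. The log2 fold change was -0.10, with a 95% interval from -0.31 to 0.12 and an edgeR adjusted p of 0.423. Its sign was positive with library size alone (0.065) and on FPKM values (0.045). Antisense genes share 1068 (*0610009E02Rik*) and 414 (*Gm13568*) of its exonic bases, and the use of strand in counting is not stated.

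*Notch3* (chromosome 17, positions 32120820 to 32166852, minus strand), known as the receptor of pericytes and smooth muscle cells, had 233, 298 and 344 counts in GFP and 270, 256 and 260 in CRE. In CPM the GFP libraries ranged from 14.5 to 17.9 and the CRE libraries from 13.7 to 14.5, so that GFP replicate 1 lay among the CRE libraries. The log2 fold change was -0.22 (SE 0.09, 95% interval -0.43 to -0.01), with an edgeR adjusted p of 0.0796. Without GFP replicate 1 the change was -0.30 and passed the threshold (adjusted p of 0.0178), while without GFP replicate 3 it was -0.15 (adjusted p of 0.265) and without CRE replicate 3 -0.19 (adjusted p of 0.193). The deposited FPKM gave the opposite sign (0.13 on the log2(FPKM + 1) scale), and 1 library decided this. In CRE replicate 3 *Notch3* had 2.92 FPKM from 260 counts, whereas CRE replicate 1 had 1.90 FPKM from 270 counts. The transcript length implied by count and FPKM was 4.97 kb in CRE replicate 3 and 8.01 to 8.02 kb in the other libraries. An antisense gene (*Gm17276*) shares 488 of its exonic bases.

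**Figure D2:**
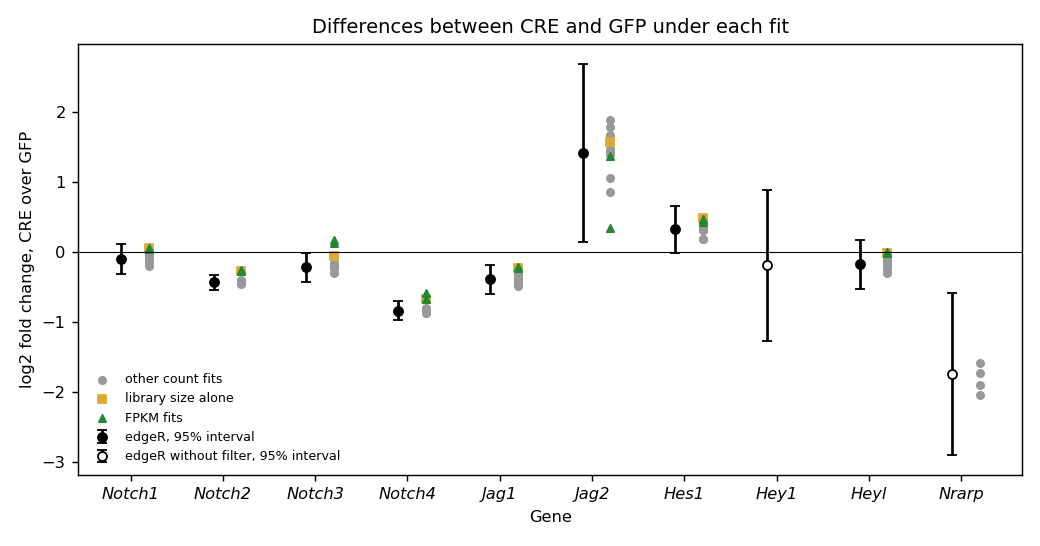
Difference between the groups for each member. The y axis is the log2 fold change of CRE over GFP, black points are the edgeR estimate with its 95% interval (open where the gene did not pass the filter and was fitted without it), and grey, yellow and green points are the other fits. The intervals of *Notch2*, *Notch3*, *Notch4*, *Jag1* and *Nrarp*, which are not adjusted for the number of genes, lie below 0, that of *Jag2* lies above 0, those of *Notch1*, *Hes1*, *Hey1* and *Heyl* cross 0, and the FPKM fits of *Notch3* lie above 0 where its count fits lie below.

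Levels were compared between genes on the deposited FPKM, a level per transcript length. In GFP the receptors stood in the order *Notch2* (16.8 ± 0.49 FPKM, SD, n = 3), *Notch4* (7.92 ± 0.25 FPKM), *Notch1* (2.73 ± 0.21 FPKM) and *Notch3* (1.93 ± 0.21 FPKM), with no overlap between neighbours. In CRE the order was the same, with 13.9 ± 0.59, 4.95 ± 0.29, 2.85 ± 0.38 and 2.24 ± 0.60 FPKM, but *Notch1* and *Notch3* now overlapped, through CRE replicate 3. *Jag1*, at 13.1 ± 1.36 FPKM in GFP, stood between *Notch2* and *Notch4*. *Hes1* came next after *Notch4* in GFP (6.06 ± 1.09 FPKM) and stood above it in CRE (8.46 ± 1.30 FPKM), where it overlapped *Jag1*. *Heyl* followed at 1.12 ± 0.18 FPKM in GFP and 1.11 ± 0.10 FPKM in CRE, and *Jag2*, *Hey1* and *Nrarp* had means of at most 0.41 FPKM in either group. In GFP *Nrarp* overlapped *Hey1*, and *Hey1* overlapped *Jag2*. The place of *Jag2* in either order is uncertain, since its FPKM rests on a different transcript length in each library.

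The summed FPKM of the 4 receptors was 28.7, 30.4 and 28.9 under GFP and 22.8, 24.7 and 24.4 under CRE, lower in all CRE libraries. The share of *Notch4* in that sum was 27.8%, 26.8% and 26.4% in GFP and 21.6%, 21.2% and 19.2% in CRE, a difference of -6.29 percentage points. The share of *Notch2* went from 57.2% ± 0.24 to 58.1% ± 0.18 (SD, n = 3), and that of *Notch1* went from 9.28% ± 0.43 to 11.9% ± 1.36 (SD, n = 3). None of these 3 shares overlapped between the groups, and the exact two-sided permutation test gave p = 0.1 for each, the smallest that 3 against 3 libraries allow. The share of *Notch3* depended on CRE replicate 3: its difference was 2.74 percentage points with it and 1.39 without it. Shares made from counts and exon length gave -5.42 percentage points for *Notch4*, 1.45 for *Notch3* and 1.92 for *Notch2*, where the FPKM gave 0.93.

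**Figure D3:**
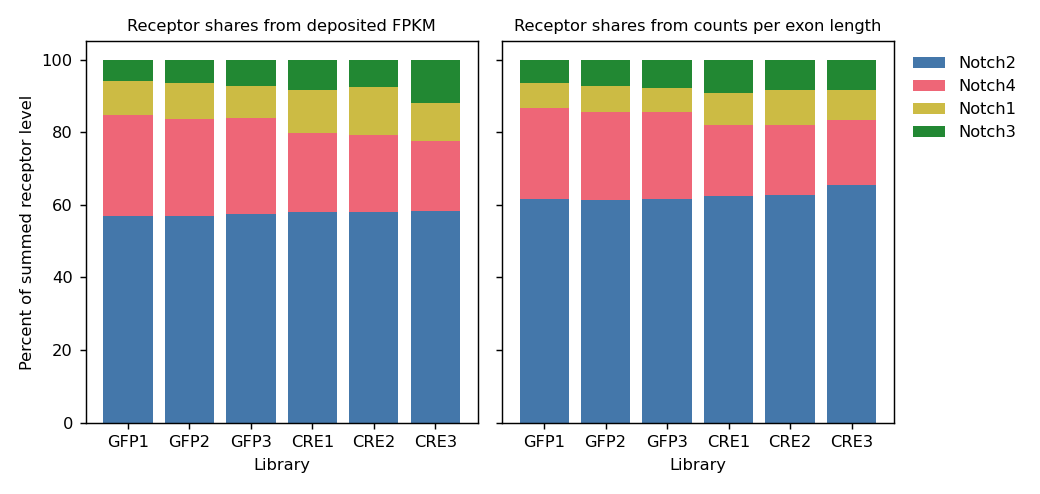
Share of each receptor in the summed level of *Notch1* to *Notch4*, in percent, for each library. The left panel uses deposited FPKM and the right panel counts divided by exon length, and each bar adds to all of the receptor level. The *Notch4* segment is smaller in each CRE library (19.2% to 21.6% on FPKM) than in each GFP library (26.4% to 27.8%), and the *Notch3* segment of CRE replicate 3 stands out in the left panel only.

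The ratio of 2 members within a library does not depend on how libraries are scaled. These ratios were chosen after the values had been seen. The log2 ratio of *Notch4* to *Notch1* counts was 1.06, 0.93 and 1.05 in GFP and 0.33, 0.16 and 0.34 in CRE, so the difference between the groups was -0.74. Against *Notch2* the log2 ratio of *Notch4* differed by -0.41, from -1.76 ± 0.04 to -2.16 ± 0.10 (SD, n = 3). For *Notch3* against *Notch1* the groups overlapped, with a difference of -0.11. For *Notch2* against *Notch1* it was -0.33, without overlap. *Notch4* was thus lower relative to *Notch2*, and both were lower relative to *Notch1*, in every CRE library, with an exact permutation p of 0.1 for each of these 3 ratios, the smallest that this design allows.

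Among the ligands *Jag1* (chromosome 2, positions 137081456 to 137116644, minus strand), a broadly expressed ligand of mesenchymal and vascular cells, had 87.3, 72.7 and 73.5 CPM in GFP and 67.5, 57.9 and 52.6 CPM in CRE. Replicate 1 was the highest library of each group, and the groups were separate. The edgeR log2 fold change was -0.39 (SE 0.10, adjusted p of 0.00638). It did not pass the threshold with library size alone (-0.23, adjusted p of 0.0582) or on log2(FPKM + 1) (-0.21, adjusted p of 0.121) and log2(FPKM + 0.1) (-0.23, adjusted p of 0.151).

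*Jag2* (chromosome 12, positions 112907819 to 112929776, minus strand), the other Jagged ligand, had 10, 9 and 1 counts in GFP and 12, 27 and 18 in CRE. Although the groups did not overlap, GFP replicate 1 and CRE replicate 1 differed by 2 counts. The exact Poisson intervals of these counts, which cover counting error only, were 4.80 to 18.4 and 6.20 to 21.0. The log2 fold change of 1.42 (SE 0.57, 95% interval 0.14 to 2.70) did not pass the threshold (edgeR adjusted p of 0.0618). It passed with library size alone, on FPKM values and without GFP replicate 1 (1.89, adjusted p of 0.0314). Other libraries moved it the other way, to 0.86 (adjusted p of 0.170) without GFP replicate 3, which had 1 count, and to 1.06 (adjusted p of 0.212) without CRE replicate 2. The transcript length implied by its count and FPKM varied between 2.10 and 5.10 kb, so its FPKM is not comparable between libraries, the fits on FPKM included.

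*Hes1*, a repressor that is the best known direct target of Notch and is also induced by other signals (chromosome 16, positions 30064384 to 30067796, plus strand), had 178, 136 and 183 counts in GFP and 258, 187 and 209 in CRE. In CPM these were 11.1, 7.67 and 9.51 against 13.9, 10.4 and 11.04, with the lowest CRE libraries inside the GFP range. It was the one member with a positive estimate at more than 100 counts per library, with a log2 fold change of 0.32, a 95% interval from -0.02 to 0.66 and an edgeR adjusted p of 0.102. The estimate was positive in all 16 other fits, from 0.19 to 0.49. It passed the threshold in 4 fits, with library size alone (adjusted p of 0.0180), on log2(FPKM + 1) (0.0350), with the replicate number as a block (0.0269) and without GFP replicate 1 (0.0269). Other libraries moved it the other way, to 0.19 without GFP replicate 2 (adjusted p of 0.307) and to 0.19 without CRE replicate 1 (adjusted p of 0.342).

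*Heyl*, a HEY gene typical of mural cells (chromosome 4, positions 123233556 to 123249875, plus strand), had 98, 78 and 109 counts in GFP and 98, 79 and 88 in CRE. Its groups overlapped almost fully, at 6.09, 4.397 and 5.66 CPM against 5.27, 4.38 and 4.65 CPM, and the log2 fold change was -0.17 (95% interval -0.53 to 0.18, edgeR adjusted p of 0.388). Within libraries the log2 ratio of *Hes1* to *Heyl* counts was 0.86, 0.80 and 0.75 in GFP and 1.40, 1.24 and 1.25 in CRE. This ratio was higher in all CRE libraries, a difference of 0.49 with an exact permutation p of 0.1, although neither gene was called alone. Relative to *Notch1* the log2 ratio of *Hes1* differed by 0.43, and the groups overlapped (exact permutation p = 0.3). Relative to *Notch2*, which was itself called lower, *Hes1* was higher in all CRE libraries, the log2 ratio being -4.32 ± 0.31 in GFP and -3.57 ± 0.28 in CRE (SD, n = 3).

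*Hey1*, a HEY gene of arterial endothelium and developing heart (chromosome 3, positions 8663359 to 8667256, minus strand), had 5, 7 and 11 counts in GFP and 6, 8 and 7 in CRE. Both groups lay under 0.58 CPM and overlapped. A fit without the filter gave a log2 fold change of -0.19 with an interval from -1.27 to 0.89, so no difference was detectable at this depth.

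*Nrarp*, a small ankyrin-repeat protein that Notch induces and that limits Notch signalling (chromosome 2, positions 25180758 to 25183339, plus strand), had 15, 7 and 17 counts in GFP and 4, 3 and 5 in CRE. The groups did not overlap, and 29.2% of the GFP level of 0.74 CPM remained under CRE. The gene did not pass the filter, and in a fit without it the log2 fold change was -1.74 (SE 0.54, edgeR adjusted p of 0.0193). With a library left out it passed the filter only while both GFP libraries with 15 and 17 counts were kept, where it is high, so those fits are no support for a difference. An antisense gene (*Gm38287*) shares 2051 of the 2582 exonic bases of *Nrarp*, so reads of the pair cannot be told apart without strand.

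Other genes of the pathway were described from a list of 62. Of these 54 were tested, 16 were higher and 12 lower in CRE, which is 51.9% called against 51.2% of all tested genes, with a median log2 fold change of 0.02. Scaled by library size alone, 29 rose and 7 fell. The pathway beyond the members thus moved in both directions and about as often as the rest of the transcriptome. Of the 60 genes that the table annotates to the KEGG Notch signaling pathway, which include 9 of the 10 members, 53 were tested, with 10 higher and 17 lower.

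Among the other ligands *Dll4*, the Delta-like ligand of arterial and sprouting endothelium, stood apart. Its counts were 68, 52 and 77 under GFP and 2, 7 and 13 under CRE. It passed the filter on low counts only through the GFP group, where it was higher. The CRE libraries were all far below the GFP libraries but differed among themselves, and the edgeR estimate was -3.21 on the log2 scale (SE 0.39, adjusted p of 8.58e-05). *Dll1* did not pass the threshold (0.12, SE 0.29) and neither did *Dner* (1.05, SE 0.42, adjusted p of 0.0616), a further ligand gene that was highest in CRE replicate 2. *Dll3*, *Dlk1* and *Dlk2* had at most 9 counts in any library and were not tested.

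The proteases that release the receptor fragment were called most often, 8 of 10, in both directions. *Furin*, which cuts the receptor on its way to the surface, *Adam17*, a sheddase, and *Aph1b*, a subunit of γ-secretase, were higher, with log2 fold changes of 0.50, 0.44 and 0.48. *Adam10*, the main sheddase of ligand-bound Notch, was higher by only 0.11 (adjusted p of 0.0426). The γ-secretase subunits *Ncstn*, *Aph1a* and *Psenen* were lower, with -0.25, -0.28 and -0.32. The values of *Furin*, *Adam17*, *Adam10*, *Aph1b*, *Ncstn*, *Aph1a* and *Psenen* are given because the class was called in both directions, and this choice was made after they were seen.

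The Fringe glycosyltransferases add sugars to the EGF-like repeats and so change which ligands a receptor answers to. *Lfng* had 19, 12 and 5 counts in GFP and 34, 28 and 32 in CRE (log2 fold change of 1.29, SE 0.40, edgeR adjusted p of 0.0217). *Mfng* had 15, 21 and 17 against 5, 11 and 8 counts (-1.20, SE 0.37, adjusted p of 0.0203). *Lfng* passed the filter on low counts only through the CRE group and *Mfng* only through the GFP group, in each case the group where it was higher. *Rfng*, another Fringe, did not pass the threshold (0.07, SE 0.11).

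Of 8 genes for the nuclear complex and its coactivators 2 were higher and 1 was lower. *Rbpj*, the DNA-binding core of the complex, rose from 170 to 218 CPM (0.36 on the log2 scale, SE 0.04, edgeR adjusted p of 6.06e-05). *Maml1*, *Maml2* and *Maml3*, the Mastermind coactivators, did not pass the threshold, with log2 fold changes of -0.03, -0.11 and 0.23. Among corepressors 4 of 12 were higher and 2 lower. *Tle4*, a Groucho-type corepressor that HES proteins recruit, was higher (0.59, SE 0.10), and its relative *Tle2* was lower (-0.86, SE 0.21) at 35 to 79 counts per library. Among ubiquitin ligases and endocytic regulators 3 of 14 tested were higher and 4 lower. *Dtx4*, a Deltex-type ligase, was lower (-0.74, SE 0.15), and *Neurl1a*, a Neuralized-type ligase that acts on ligands, was higher (1.26, SE 0.34) at 8 to 37 counts per library, having passed the filter only through the CRE group. Of the other HES and HEY genes 2 of 6 were tested. *Hes6*, which encodes a HES protein that can oppose HES1, rose from 4.80 to 7.10 CPM (0.56, SE 0.12, adjusted p of 0.00360), and *Hey2*, at 7 to 24 counts, did not pass the threshold (-0.51, SE 0.37). *Hes5* had no count in any library.

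**Figure D4:**
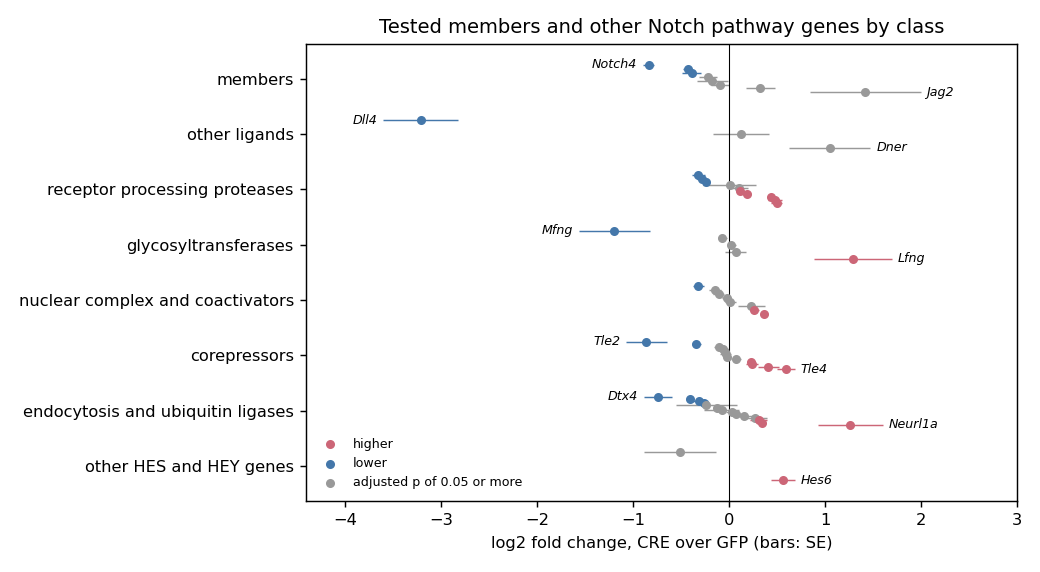
Log2 fold change of CRE over GFP for tested members and for other tested Notch pathway genes by class. Points are genes with their SE, red where higher, blue where lower and grey where the adjusted p was 0.05 or more. The *Dll4* point at -3.21 lies far from all others, and most other points lie within 1 of 0.

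Most markers of endothelial cells and of fibroblasts were lower in CRE, as were *Notch4* and *Dll4*. The 15 endothelial markers summed to 503, 452 and 464 CPM under GFP and to 230.3, 227 and 258 CPM under CRE, and none was at 0 in every library. *Vwf*, *Robo4*, *Tie1* and *Sox18*, endothelial genes, had log2 fold changes of -1.74, -1.71, -1.36 and -2.38, while *Flt1* (0.06) and *Kdr* (-0.42) did not pass the threshold. *Sox18* and the marker *Cldn5*, also counted as lower, passed the filter only through the GFP group, as did *Dll4*. In the same libraries *Notch4* counts amounted to 11.1%, 12.5% and 11.5% of the summed counts of these markers in GFP and to 13.4%, 14.4% and 11.3% in CRE. These ranges overlapped (exact permutation p = 0.3). *Dll4* was lower relative to the same sum, at 0.783% ± 0.118 in GFP and 0.161% ± 0.110 in CRE (SD, n = 3), with no overlap. *Notch2* went from 39.5% ± 3.15 to 58.2% ± 4.03 and *Jag1* from 16.4% ± 0.82 to 25.1% ± 4.48 of that sum (SD, n = 3), both without overlap. The mural markers *Rgs5* (-1.19), *Abcc9* (-1.08) and *Des* (-0.94) were lower and *Cspg4* (1.03) was higher, beside an estimate of -0.22 for *Notch3* and -0.17 for *Heyl*. The fibroblast genes *Tcf21* (-1.80), *Lum* (-1.46), *Pdgfra* (-0.87) and *Dcn* (-0.80) and the macrophage genes *Adgre1* (-1.27) and *Lyz2* (-0.69) were lower too. Ratios to the other marker sums were not made. The part of these cell types in the differences of the Notch genes was not tested.

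**Figure D5:**
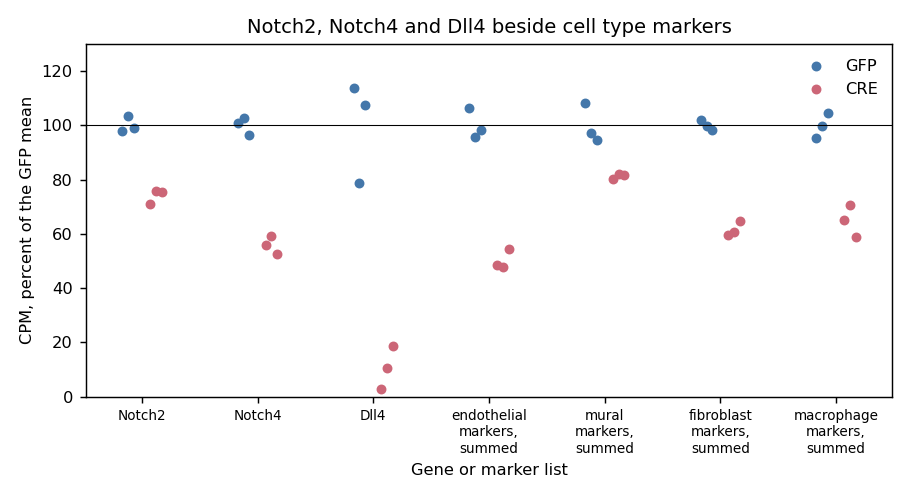
Level of *Notch2*, *Notch4* and *Dll4* and the summed level of 4 cell type marker lists in each library, in percent of the GFP mean of that gene or list. Blue points are GFP and red points CRE libraries, and the y axis starts at 0. The CRE points of *Notch4* and of the endothelial, fibroblast and macrophage sums lie near the middle of the axis. Those of *Dll4* lie lower, and those of *Notch2* and of the mural sum lie higher.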

How the data were processed

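According to the methods, read trimming used Trimmomatic, alignment to GRCm38 used HISAT2, and gene counts came from HTSeq-count. Tool versions and the strand setting are not given in the sources used here. The labels and the methods name different RNA extraction and library kits, the library kit of the methods being a stranded one. The deposited table holds raw gene counts for each library, and FPKM that the authors made with Cufflinks, with group means. The log2 fold change, p-value and false discovery rate deposited by the authors hold their own comparison and were not used.

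Groups came from the sample titles. Counts were fitted in R 4.3.3 with edgeR 4.0.16 on the whole table (filterByExpr, minimum count 10, minimum total 15, TMM, quasi-likelihood test, Benjamini-Hochberg adjustment over 12862 genes). A gene without counts could still have had 3 counts, which is 0.148 to 0.176 CPM by library size without TMM, counting error only. SE is the absolute log2 fold change over the square root of F. Coordinates and exon lengths are from GENCODE M21 (GRCm38, the build of the files), promoters from RefSeq. Alternatives were other scalings and filters, DESeq2 1.42.0, limma 3.58.1 on voom and on log2(FPKM + 1 or 0.1), the replicate block and each library left out. Genes named were all members, and pathway or marker genes with an adjusted p under 0.05, groups apart, an absolute log2 fold change of at least 0.5 and a mean of at least 1 CPM, at most 4 per class by size of change, plus *Tet3*, *Rbpj* and *Maml1* to *Maml3*. Others were named after their values were seen. The members and lists were chosen with earlier results of these data known.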

Additional observations from a re-analysis of the deposited data

How the results depend on the processing

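*Notch2* and *Notch4* kept their direction and call in all 16 other fits, and *Heyl* stayed uncalled in all 16. *Notch1* turned positive with library size alone (0.065) and on log2(FPKM + 1) (0.045) and log2(FPKM + 0.1) (0.058), and *Notch3* did on the FPKM fits (0.13 and 0.18), uncalled in each. Library size scaling without TMM called 5529 genes higher and 2083 lower, 2 members higher, and 29 other pathway genes higher and 7 lower, with a shift of 0.16 in the median over all genes. On log2(FPKM + 1), where the median over all genes shifted by 0.13, 4904 genes were higher and 1890 lower, 2 members higher, 26 pathway genes higher and 5 lower, and 3 mural markers lower. The threshold in the study's methods (p below 0.05 unadjusted, fold change above 1.5 or below 0.66) called 967 genes higher and 1323 lower, 1 member higher and 1 lower, and 4 pathway genes higher and 4 lower. It changes both the adjustment and the size asked for. The member gained, *Jag2*, had an unadjusted p of 0.0329 in the edgeR fit. *Notch4* was the lower member kept, while *Notch2* (-0.43) and *Jag1* (-0.39) fell short of the fold change asked for. Without the filter 1 cardiomyocyte marker was called higher. Leaving out each library gave 0 to 2 higher members and 3 to 4 lower ones, with 2735 to 3214 genes higher and 2874 to 3303 lower. The 2 higher members, *Jag2* and *Hes1*, came without GFP replicate 1, the library that stood apart. The added lower member was *Notch3* in that fit and otherwise *Nrarp*, which passed the filter only through the GFP group. The *Notch2* share moved by 1.92 percentage points, in place of 0.93, on counts per exon length. Over all genes the replicate numbers did not clearly pair the libraries (same-number correlations of deviations 0.03, 0.21 and -0.04, and not every library correlated best with its own number). A replicate block gave 3260 genes higher and 3373 lower and 1 member higher (*Hes1*). It lowered the SE of *Jag1* (0.0953 to 0.0505) and *Hes1* (0.1524 to 0.1013) but not that of *Notch3* (0.0943 to 0.0968). Whether the numbers pair the libraries for single genes is therefore not settled. Depth limits *Jag2*, *Hey1* and *Nrarp*, at 1 to 27 counts per library.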
